A study of Mus musculus with 4 samples.

Results

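The genes described here are 52 mouse genes of splicing factors, out of 34631 protein-coding and lncRNA genes. They were chosen by name, with earlier results of these data known. They comprise 23 genes of heterogeneous nuclear ribonucleoproteins (hnRNP), 14 genes of serine/arginine-rich (SR) and SR-related proteins, and 15 genes of other splicing factors. The measurement is a map of the RNA bound by PTBP1, polypyrimidine tract binding protein 1, itself an hnRNP that regulates splicing. A PTBP1 cluster, a stretch of RNA recovered with the protein, was counted for a gene when its midpoint lay in the gene's span in the mm10 (GRCm38) mouse genome and on the gene's strand. By this rule 872 of the 376266 clusters of replicate 1 and 928 of the 388894 clusters of replicate 2 belonged to the 52 genes, and each gene had clusters in both replicates.

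The map was made by enhanced crosslinking and immunoprecipitation (eCLIP) from frozen, ground whole heart of wild-type C57BL/6 mice, in 2 immunoprecipitates and 2 size-matched inputs. Ultraviolet light fixed RNA to the proteins bound to it, RNase-I cut it to fragments and an antibody to PTBP1 pulled down the complexes, and each input was taken from the same lysate ahead of the antibody. No mouse was treated or lacked PTBP1, although the title of the study concerns its deletion in cardiac fibroblasts, so the data map binding in the normal heart. The labels do not say whether the replicates are different animals, and their spread may be technical. Clusters lay in RNA of all 7 cardiomyocyte, all 5 fibroblast, all 4 endothelial, all 4 smooth muscle and pericyte and all 3 macrophage marker genes in both replicates. Their folds over input differed, so a cluster alone does not mean enrichment. Median log2 folds of Myl2, Tnnt2, Tnni3, Actc1 and Ttn were −4.21 to −2.45, and those of Myh6 and Ryr2 were 0.08 to 0.52. Medians were above 0 in both replicates for endothelial, smooth muscle and pericyte markers, fibroblast markers other than Col1a2, and Adgre1 of the macrophage markers. Erythroid markers held 4 and 5 clusters and neuronal markers 7 and 4, with Rbfox3 at 0.

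Proteins of the hnRNP and SR families bind nascent transcripts and steer the choice of splice sites, hnRNPs often as repressors and SR proteins often as activators. Core factors such as U2AF2 and SF3B1 recognise the 3′ splice site and the branch point for the spliceosome. Many of these proteins also act on each other's transcripts and on their own, for example through exons that send the RNA to decay, so a map of PTBP1 on their RNA shows where one regulator touches the transcripts of others.

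All folds and p-values of clusters were taken from the authors' deposited tables, which set each immunoprecipitate against its paired input. Read depth per cluster is unknown. Here an enriched cluster has both its log2 fold and its −log10 p at 3 or above, and it is reproducible where it overlaps an enriched cluster of the other replicate on the same strand. With 2 replicates there is no test over samples, so members are described by counts beside the same counts over the whole tables. Whole heart is a mixture of cells, and in it fewer cells of a type and less RNA per cell cannot be told apart.

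The site in Hnrnpk, the gene of a poly(C)-binding KH-domain protein, is the case in which a short annotated RNA lies beside the enriched clusters. The gene hosts the microRNA gene Mir7-1, whose hairpin occupies chr13:58392779-58392886 on the − strand. The hairpin and its mature products are shown because PTBP1 clusters lay on both sides of it. The sequences are those of RefSeq for GRCm38.p6, written 5′ to 3′; capitals mark the mature arms in the hairpin, and bases 2 to 8 (the seed) in the mature microRNAs.
Mir7-1 hairpin: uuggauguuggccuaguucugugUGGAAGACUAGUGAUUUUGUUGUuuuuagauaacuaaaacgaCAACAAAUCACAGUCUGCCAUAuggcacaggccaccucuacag
mmu-miR-7a-5p: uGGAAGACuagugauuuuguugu
mmu-miR-7a-1-3p: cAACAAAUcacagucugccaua

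The seed GGAAGAC is shared by miR-7a-5p and miR-7b-5p, which come from 3 hairpin genes (Mir7-1, Mir7-2 and Mir7b) among 1738 mature entries. No cluster of either replicate overlapped the Mir7-1 hairpin itself. On its upstream side, the nearest cluster lay 31 nt away in replicate 1 and 28 nt away in replicate 2. Its log2 fold of immunoprecipitate over input was 3.40 in replicate 1 and 3.53 in replicate 2, with −log10 p of 2.79 and 3.16. The next cluster upstream, 122 and 123 nt from the hairpin, had log2 folds of 4.58 and 4.60 and −log10 p of 7.68 and 7.87. Downstream, the nearest cluster lay 34 nt away with a log2 fold of 4.01 in replicate 1, and 41 nt away with 2.06 in replicate 2. The upstream values of the replicates were thus close and the downstream ones were not. Some of these values recur elsewhere, as 3.40 with a −log10 p of 2.79 does at another cluster of Hnrnpk in replicate 1. What the closeness owes to such recurring values was not tested. Farther along the gene, between the hairpin and the 3′ end, log2 folds lay between −1.86 and 0.45.

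Enriched clusters beside a microRNA hairpin were rare, and most hairpins had no cluster nearby at all. Of 1005 hairpins, 4 had an enriched cluster within 50 nt in replicate 1 (0.398%) and 3 in replicate 2 (0.299%). A cluster of any fold lay that close to 61 and 76 hairpins (6.07% and 7.56%). Mir7-1 counted in both replicates through different clusters, the downstream one in replicate 1 and the upstream one in replicate 2. Among the other members, Srrm2 hosts Mir5125 and Raver1 hosts Mir7082, and no enriched cluster lay within 200 nt of either. The pyrimidine motifs UCUU and CUCUCU, searched on the hairpin's own strand, were absent from the Mir7-1 hairpin; UCUU was present in 35.4% and CUCUCU in 6.77% of the 1005 hairpins. The RNA sequence under the clusters, beside the hairpin, was not analysed here.

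**Figure D1:**
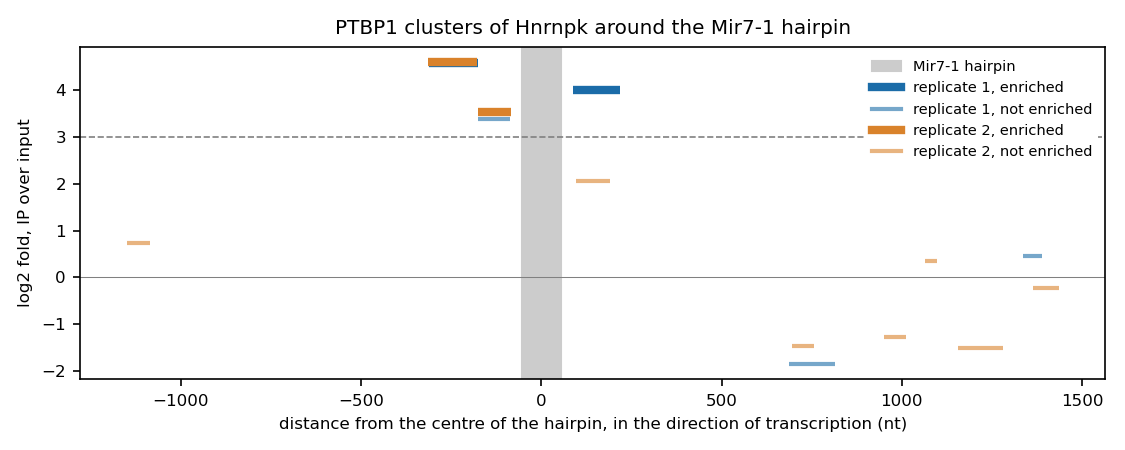
PTBP1 clusters of Hnrnpk around the Mir7-1 hairpin, drawn at their distance from its centre along the direction of transcription (nt, x axis) and at their log2 fold over input (y axis). Thick bars are enriched clusters and thin bars are others. The upstream bars of both replicates lie together, at 3.40 and 3.53 and at 4.58 and 4.60, while the downstream bars differ, at 4.01 and 2.06.

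PTBP1 was enriched at a few places in a minority of the genes. The 36 genes without a reproducible cluster had a median of gene medians of −0.21 and −0.57 over their clusters. Some of them lay above input, such as Elavl1 with medians of 0.85 and 0.49. RNA outside clusters is not covered by these values. Of the 52 genes, 16 (30.8%) held a reproducible cluster, against 24.9% of all 13702 genes that had clusters in both replicates. They were 9 of 23 hnRNP genes (39.1%), 2 of 14 SR genes (14.3%) and 5 of 15 other genes (33.3%). A further 5 genes had an enriched cluster without an enriched partner at the same place, namely Raly, Srrm1, Srrm2, Tra2a and Tia1. The remaining 31 genes had no enriched cluster in either replicate. Counted by clusters, 46 of 872 were enriched in replicate 1 (5.28%, 95% Wilson interval 3.98 to 6.96) against 6.31% of the whole table. In replicate 2 it was 35 of 928 (3.77%, 2.72 to 5.2) against 4.71%. The intervals cover counting error only. The share of enriched clusters in the members was therefore near that of the tables, and slightly lower in both replicates. By p alone, 84 member clusters in replicate 1 (9.63% against 8.81% of the table) and 65 in replicate 2 (7% against 7.5%) had a −log10 p of 3 or more. Overlapping clusters that both reached it were found in 24 of the 52 genes, 9 hnRNP, 6 SR and 9 other genes. All 24 also had such a pair with log2 folds of at least 1, which 31.8% of all genes had.

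Over all their clusters the members lay below input more often than the tables as a whole, though their gene medians were not lower at every gene length. In replicate 1, 325 member clusters (37.3%) had a fold below input, against 27.1% of all clusters. In replicate 2, 403 (43.4%) did, against 28.5%. The median log2 fold of member clusters was 0.62 in replicate 1 and 0.20 in replicate 2, where all clusters had 0.62 in both. Per gene, 21 of the 52 had a median below 0 in both replicates (40.4% against 22.5% of all genes), 10 of them hnRNP, 7 SR and 4 other genes, and 24 had a median above 0 in both. SR genes had the lowest medians over clusters, 0.36 and −0.07, and 40.6% and 51.2% of their clusters below input. For hnRNP genes the medians were 0.62 and 0.36, and for the other genes 0.62 and 0.20. Raly alone held 107 of the 422 hnRNP clusters in replicate 1 and 106 of the 448 in replicate 2. As medians of gene medians, hnRNP genes had −0.155 and 0.04, SR genes −0.025 and −0.142, and the other genes 0.62 and 0.03. By that measure SR genes were lowest in replicate 2 and hnRNP genes in replicate 1. By length, the 25 members with spans of 20000 to 50000 nt had a median of gene medians of 0.85 and 0.49, above the 0.36 and 0.25 of all genes of that length. Those of 10000 to 20000 nt had −0.33 and −0.83 against 0.09 and 0.03, and those below 10000 nt −0.93 and −1.17 against −0.38 in both replicates. The 2 members of at least 50000 nt had 0.12 and 0.17 against 0.50 and 0.36.

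Most folds took values that recur across the tables. In replicate 1, 81% of member clusters had a fold shared by at least 100 clusters of the table, and in replicate 2 it was 83.3%. All clusters had 90.3% and 90.7%. Of enriched member clusters 52.2% and 25.7% had such a fold, against 51.4% and 47.9% of all enriched clusters. Reproducible member clusters carried one in 11 of 31 and 6 of 29 cases. Whether few reads lie behind the recurring values was not tested, since no read counts were used.

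**Figure D2:**
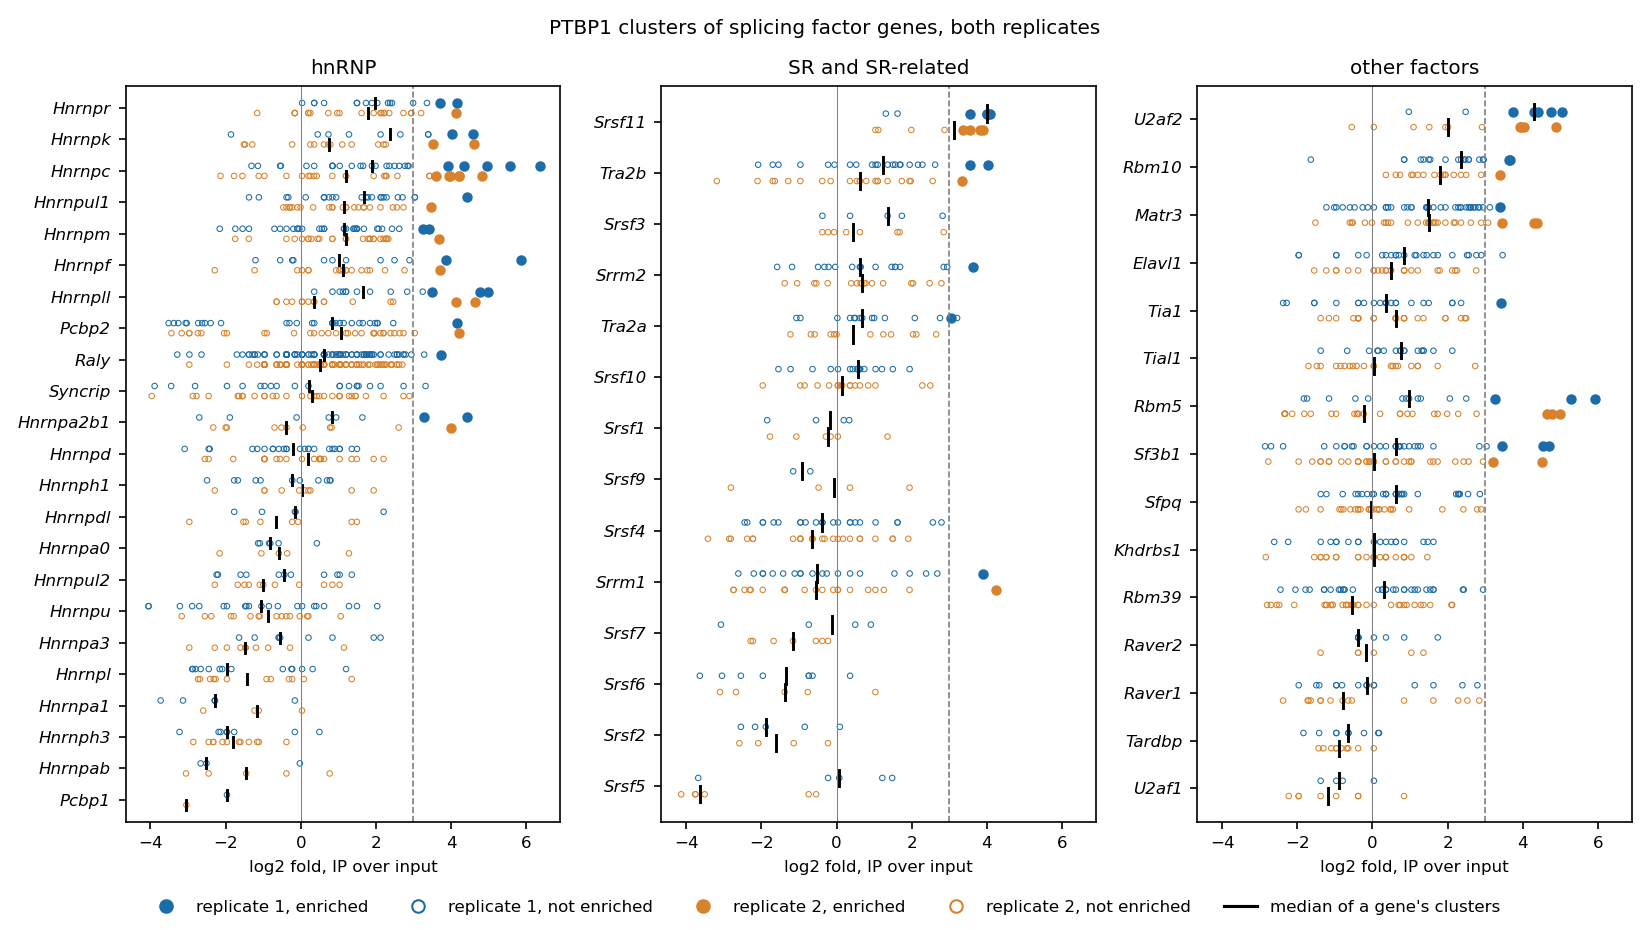
Log2 fold of immunoprecipitate over input (x axis) of every cluster of the 52 genes (rows, in 3 classes), with replicate 1 in blue above replicate 2 in orange. Filled points are enriched clusters, the vertical dashes are gene medians and the dashed line is the threshold of 3. Filled points of both colours appear in few rows, and 21 genes have both medians left of 0.

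Over the whole range of folds, the replicates gave similar values at the same place. Over 557 overlapping pairs in members, each replicate 1 cluster was set against the replicate 2 cluster sharing most nucleotides with it. Pearson's r was 0.845 and Spearman's rho 0.827, against 0.789 and 0.743 over 210643 pairs of the whole tables. These correlations run over clusters that share lysates and genes, and are given as a description. By class, Pearson's r was 0.858 over 279 hnRNP pairs, 0.811 over 102 SR pairs and 0.831 over 176 other pairs. Over the 16 leading pairs of the genes with a reproducible cluster, which span a narrow range of folds, r was 0.229 and rho 0.321. The difference between replicates over the 557 pairs had a median of 0.19 log2 units, replicate 1 higher, and a standard deviation of 0.98. Differences of about 1 log2 unit between single sites lie within that spread, so the order of the sites below is not resolved. No pair of clusters had identical coordinates in both replicates.

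**Figure D3:**
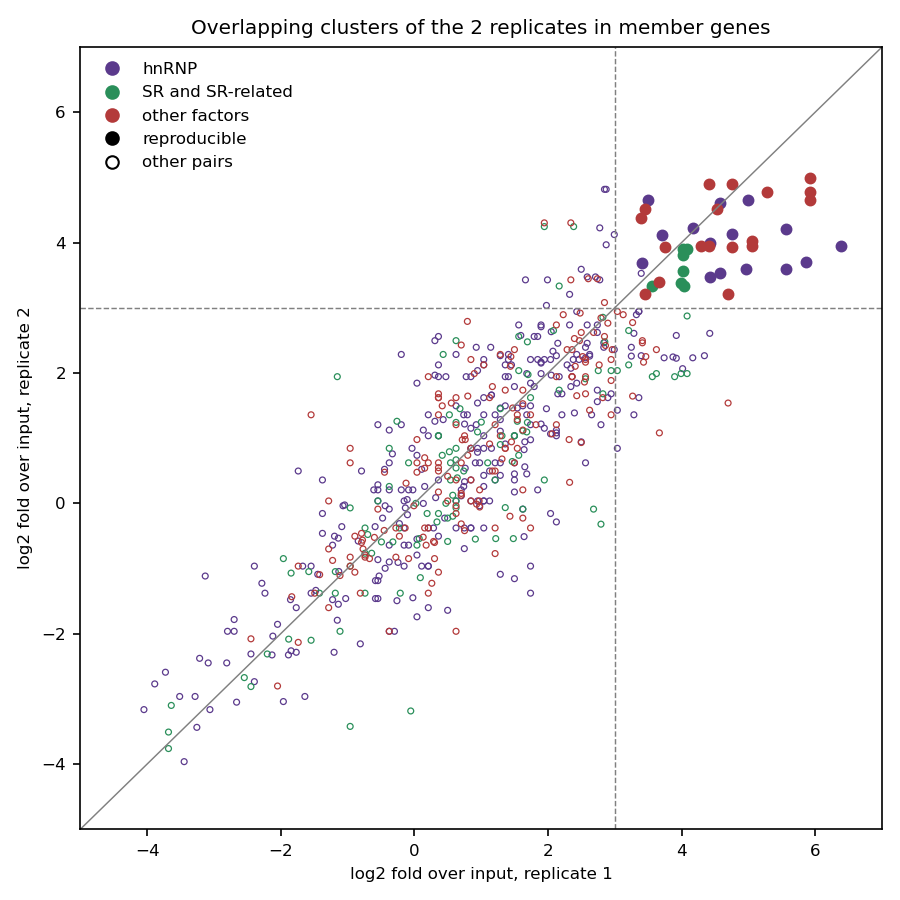
Log2 fold of overlapping clusters in replicate 1 (x axis) and replicate 2 (y axis), 1 point per overlapping pair in a member gene, coloured by class. Filled points are pairs enriched in both; the solid line marks equal folds and the dashed lines the threshold of 3. The points follow the line of equal folds, and the filled points include few SR pairs, all below 4.1 in replicate 1.

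The reproducible clusters of hnRNP genes formed 10 sites in 9 genes once touching clusters were joined. Values below are those of the overlapping enriched pair sharing most nucleotides. Hnrnpll (Entrez gene 72692), the gene of a relative of hnRNP L known for regulating Ptprc splicing in lymphocytes, held 2 sites on chromosome 17. The first, from 80046599 to 80046821 (− strand), had log2 folds of 4.99 in replicate 1 and 4.65 in replicate 2, with −log10 p of 10.7 and 8.02. The second, from 80053687 to 80053850, had 4.76 and 4.13. Both of these pairs were above 4 in each replicate, though the first site also held an enriched cluster at 3.50 in replicate 1. The sites lay 47.5% and 25.9% into the gene span.

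Hnrnpk (Entrez gene 15387) had the leading pair already described beside Mir7-1, on chromosome 13 from 58393009 to 58393144 in replicate 1. Pcbp2 (Entrez gene 18521), which encodes another poly(C)-binding KH-domain protein, had 4.17 and 4.22 on chromosome 15 from 102487940 to 102488126 (+ strand). Its −log10 p values were 5.60 and 5.79. In Hnrnpk and Pcbp2 the replicates differed by less than 0.1 log2 units. Both values of Pcbp2 recur with the same −log10 p at other places, in Hnrnpr in replicate 1 and in Hnrnpc in replicate 2. How far such recurring values account for the closeness was not tested. Pcbp2 also held clusters far below input, down to −3.51 in replicate 1 and −3.44 in replicate 2.

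Hnrnpa2b1 (Entrez gene 53379), of the hnRNP A/B group, had 4.42 and 4.00 with −log10 p of 13.5 and 14.2, on chromosome 6 from 51462168 to 51462280 (− strand). At 9615 nt it was the shortest member gene with a reproducible cluster. Hnrnpr (Entrez gene 74326) had 3.71 and 4.12 with −log10 p of 3.72 and 5.41, on chromosome 4 from 136331316 to 136331442 (+ strand). Of the 16 genes, Hnrnpr was the one whose call ended when the −log10 p had to reach 5.

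Hnrnpf (Entrez gene 98758), whose protein binds G-rich RNA, had 5.87 in replicate 1 and 3.70 in replicate 2, with −log10 p of 61.8 and 22.1. The site lay on chromosome 6 from 117910632 to 117910847 (+ strand). The 2.16 log2 units between the replicates exceeded the standard deviation of 0.98 over member pairs, though both values passed the threshold. Hnrnpc (Entrez gene 15381), whose protein binds uridine tracts, had a site of 337 nt on chromosome 14 from 52096177 to 52096513 (− strand). It consisted of 3 enriched clusters in each replicate, with log2 folds of 4.97 to 6.38 in replicate 1. Those of replicate 2 were lower, at 3.59 to 4.21, and the ranges did not overlap. Hnrnpc had further enriched clusters in 1 replicate only, among them 4.82 in replicate 2 against 2.85 in replicate 1 at 85.8% of the gene span.

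Hnrnpul1 (Entrez gene 232989), a relative of the scaffold attachment factor hnRNP U, had 4.43 and 3.47 with −log10 p of 6.92 and 9.06. Its site, on chromosome 7 from 25751733 to 25751964 (− strand), was the closest to a gene's 5′ end, 12.6% into the span. Hnrnpm (Entrez gene 76936) had 3.41 and 3.69 with −log10 p of 11.3 and 14.6, on chromosome 17 from 33647252 to 33647503 (− strand). It was the site nearest to a 3′ end, with its midpoint 97.1% into the span and 1145 nt from its end.

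Among SR and SR-related genes 2 had a reproducible cluster, and both are SR-related rather than classical SR proteins. Srsf11 (Entrez gene 69207), which encodes an SR-related protein, had log2 folds of 4.01 and 3.90 at its leading pair, with −log10 p of 61.9 and 56.7. The pair was part of a site of 430 nt with 4 enriched clusters in each replicate, on chromosome 3 from 158023505 to 158023934 (− strand). Srsf11 had 7 clusters in replicate 1 and 8 in replicate 2, so these 4 were a large part of them, and the gene's median log2 fold was 3.99 and 3.12. Tra2b (Entrez gene 20462), whose protein binds GA-rich exonic enhancers, had 4.04 and 3.33 with −log10 p of 9.93 and 7.97. Its site lay on chromosome 16 from 22255574 to 22255828 (− strand). The gene medians of Tra2b were lower, 1.23 and 0.62, so most of its other clusters lay well below the site.

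Among the other factors, U2af2 (Entrez gene 22185) encodes the U2AF subunit that binds the polypyrimidine tract, the kind of sequence that PTBP1 also binds. Its site was the longest in any member, 459 nt on chromosome 7 from 5068931 to 5069389 (+ strand), with 5 enriched clusters in replicate 1 and 4 in replicate 2. The pair sharing most nucleotides had 3.75 and 3.93 with −log10 p of 30.3 and 32.2, and the highest folds of the site were 5.05 and 4.89. Every enriched cluster of U2af2 lay in it. Sf3b1 (Entrez gene 81898), which encodes a subunit of the U2 snRNP at the branch point, had 4.53 and 4.51 with −log10 p of 29.5 and 21.7. Its site lay on chromosome 1 from 55010800 to 55011087 (− strand). The replicates were nearly equal in that pair but not along the whole site, where another enriched cluster of replicate 1, at 4.70, overlapped replicate 2 clusters at 1.54 and 3.20.

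Rbm5 (Entrez gene 83486) and Rbm10 (Entrez gene 236732) encode related RNA-binding regulators of exon inclusion. Rbm5 had 5.27 and 4.77 at its leading pair, with −log10 p of 26.4 and 26.8, on chromosome 9 within a site from 107753108 to 107753388 (− strand). The highest cluster of that site reached 5.92 in replicate 1 and 4.99 in replicate 2, with the largest −log10 p of the site at 64.3 and 32.5. Rbm10 had 3.67 and 3.40 with −log10 p of 14.5 and 11.7, on chromosome X from 20640947 to 20641177 (+ strand). Matr3 (Entrez gene 17184), the gene of the nuclear matrix protein matrin 3, a known partner of PTBP1, had 3.40 and 4.37 with −log10 p of 8.53 and 6.54. Its site lay on chromosome 18 from 35570495 to 35570631 (+ strand). Of the 16 genes, 10 had the higher fold of the leading pair in replicate 1.

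Members without a reproducible cluster differed in how near they came. Their best pair, given below, is the overlapping pair with the highest lower fold, whatever the number of shared nucleotides. By the number of clusters, the leading hnRNP gene of this kind was Raly, with 107 and 106 clusters, more than any other member. Its best pair had log2 folds of 2.74 and 2.62, and its 1 enriched cluster, at 3.74 in replicate 1, had 2.23 in replicate 2. Syncrip, the gene of hnRNP Q, reached 3.32 and 2.89 with −log10 p of 2.61 and 1.69. Hnrnpd, the gene of the AU-rich element binding protein AUF1, had 1.36 and 1.49, Hnrnpu 2.04 and 1.06, Hnrnpl 1.21 and 1.36, and Hnrnpul2 1.04 and 1.03. The pairs of Raly and Syncrip came near the threshold on fold with −log10 p below 3. In Raly, the replicate 2 cluster overlapping the enriched one fell short on fold and also on −log10 p, at 2.75. The best pairs of the other 4 stayed below 2.1.

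In the SR class, Srrm2, the gene of a scaffold of nuclear speckles, was a case of strong p and moderate fold. Its best pair had 2.85 and 2.48, with −log10 p at the limit of 400 in replicate 1 and at 68.7 in replicate 2. The replicate 1 cluster, on chromosome 17 from 23822390 to 23822687 (+ strand), was the only member cluster at that limit and lay 93.6% into the span. Srsf3, which encodes the smallest SR protein, had 2.82 and 2.85 with −log10 p of 12.8 and 12.0. Srrm1, the gene of a splicing coactivator, had an enriched cluster in each replicate but at different places. The one of replicate 2 had 4.24 against 2.38 in replicate 1, and the one of replicate 1 had 3.90 against 1.94 in replicate 2. Tra2a reached 3.21 and 2.65 in clusters sharing 15 nt, Srsf4 2.56 and 1.91, and Srsf10 1.50 and 1.03.

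Among the other factors, Tia1, whose protein binds uridine-rich RNA downstream of 5′ splice sites, had 3.41 in replicate 1 and 2.49 in replicate 2. Elavl1, the gene of the AU-rich element binding protein HuR, had 2.90 and 2.76 with −log10 p of 3.53 and 3.19. Sfpq, first described as a PTB-associated splicing factor, had 2.86 and 2.42 with −log10 p of 8.58 and 7.99. Both genes passed the p threshold in each replicate and fell short on fold alone. Rbm39, the gene of a U2AF-related factor, had 2.41 and 2.10, Tial1 2.13 and 2.74, and Khdrbs1, the gene of Sam68, 1.47 and 1.46. Of the genes outside the naming rule, chosen after their values were seen, Raver1 encodes a corepressor that binds PTBP1. Its best pair had 2.79 and 2.84 with −log10 p of 1.51 and 1.71, and another pair had 2.40 and 2.53 with 4.14 and 4.82.

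The fold threshold set how many genes were counted. With a log2 fold of at least 2, a choice made after seeing the data, 24 of the 52 genes (46.2%) had a reproducible cluster, against 30.9% of all genes. The 16 genes stayed by definition, and Elavl1, Raver1, Rbm39, Sfpq, Srrm1, Srrm2, Srsf3 and Tra2a joined them. Of the 8 genes that joined, 4 were SR genes and 4 other factors, so the counts became 9 of 23 hnRNP, 6 of 14 SR and 9 of 15 other genes. With a log2 fold of at least 4, 7 genes were left (13.5% against 12.8% of all genes), 4 of them hnRNP, 0 SR and 3 other. SR genes had the smallest share at thresholds of 3 and 4, but not at 2, where hnRNP genes had it; these differences were not tested.

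Member genes had a median span of 20891 nt, against 28384.5 nt for all genes with clusters in both replicates, and the share with a reproducible cluster rose with span over all genes. Of the 16 genes with a reproducible cluster, 13 had spans of 20000 to 50000 nt, where 25 members lay. That was 52% of these members, against 21.6% of all 4004 genes of this length, and it comprised 7 of 9 hnRNP, 2 of 6 SR and 4 of 10 other genes. Of members from 10000 to 20000 nt, 2 of 12 had one (16.7% against 9.85%), and below 10000 nt 1 of 13 (7.69% against 3.67%). Neither Raly nor Raver2, the members of at least 50000 nt, had one, against 48.9% of all genes of that length. The length bins were chosen after seeing the data, and the counts per bin are small. The members with a reproducible cluster had a median span of 30200.5 nt and the others 14430 nt.

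**Figure D4:**
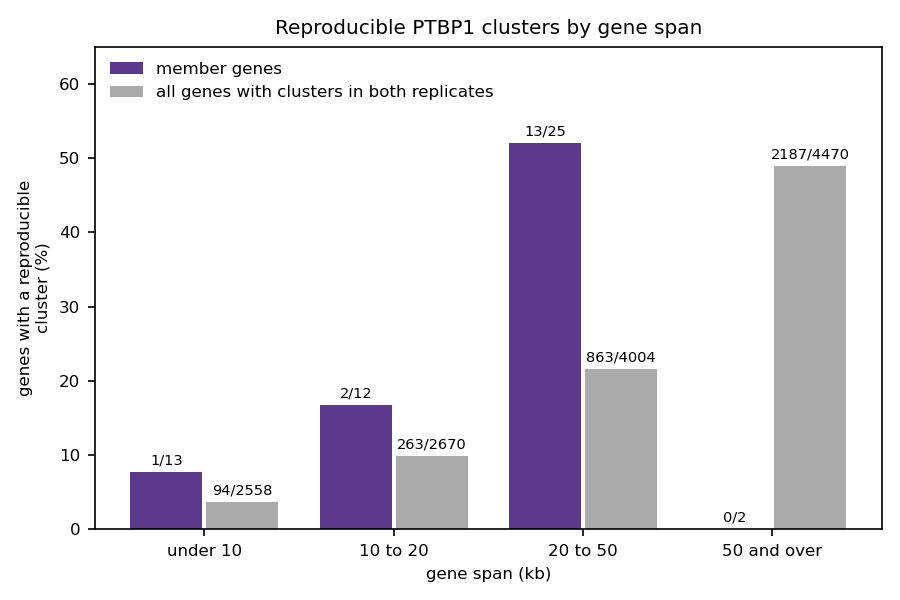
Percentage of genes with a reproducible cluster (y axis) by length of the gene span in kb (x axis), for members (purple) and for all genes with clusters in both replicates (grey), with counts above the bars. Members stand above all genes in the first 3 bins, most at 20 to 50 kb with 52% against 21.6%, and the 2 longest members have none.

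Sites were mostly well inside the genes. The 17 joined sites were 113 to 459 nt long with a median of 232 nt; 9 consisted of 1 cluster per replicate and 8 of several. The midpoints of all sites lay at least 4420 nt from the 5′ end of the gene span, and 1, that of Hnrnpm, lay in the last 10% of the span. Of all member clusters, 13.3% and 12.5% lay in the last 10% of the span, against 10.1% and 10% of all clusters placed in genes. Of the enriched ones 1 of 46 (2.17%) and 1 of 35 (2.86%) did, where all enriched clusters of the tables had 6.26% and 5.47%. With a count of 1 in each replicate, both at the Hnrnpm site, no difference from the tables can be read. Member clusters in that last stretch had a median log2 fold of −0.12 and −0.38, and those elsewhere 0.62 and 0.36. The tables as a whole had the same order, with 0.14 and 0.03 in the last stretch against 0.70 and 0.62 elsewhere. Around the start of the gene, from 250 bases before to 50 after, 6 of the 47 members with such a window in the promoter table held 14 clusters. None of these was enriched, 12 were below input and the highest had a log2 fold of 0.30. No share over the same windows of all genes is given here, and 14 clusters are few. These counts are therefore not read as particular to the members. Enriched clusters were also longer, with a median of 125 and 132 nt against 68 and 64 nt for all member clusters, close to the 130 and 131 nt against 69 and 66 nt of the whole tables. Exons and introns were not separated here.

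**Figure D5:**
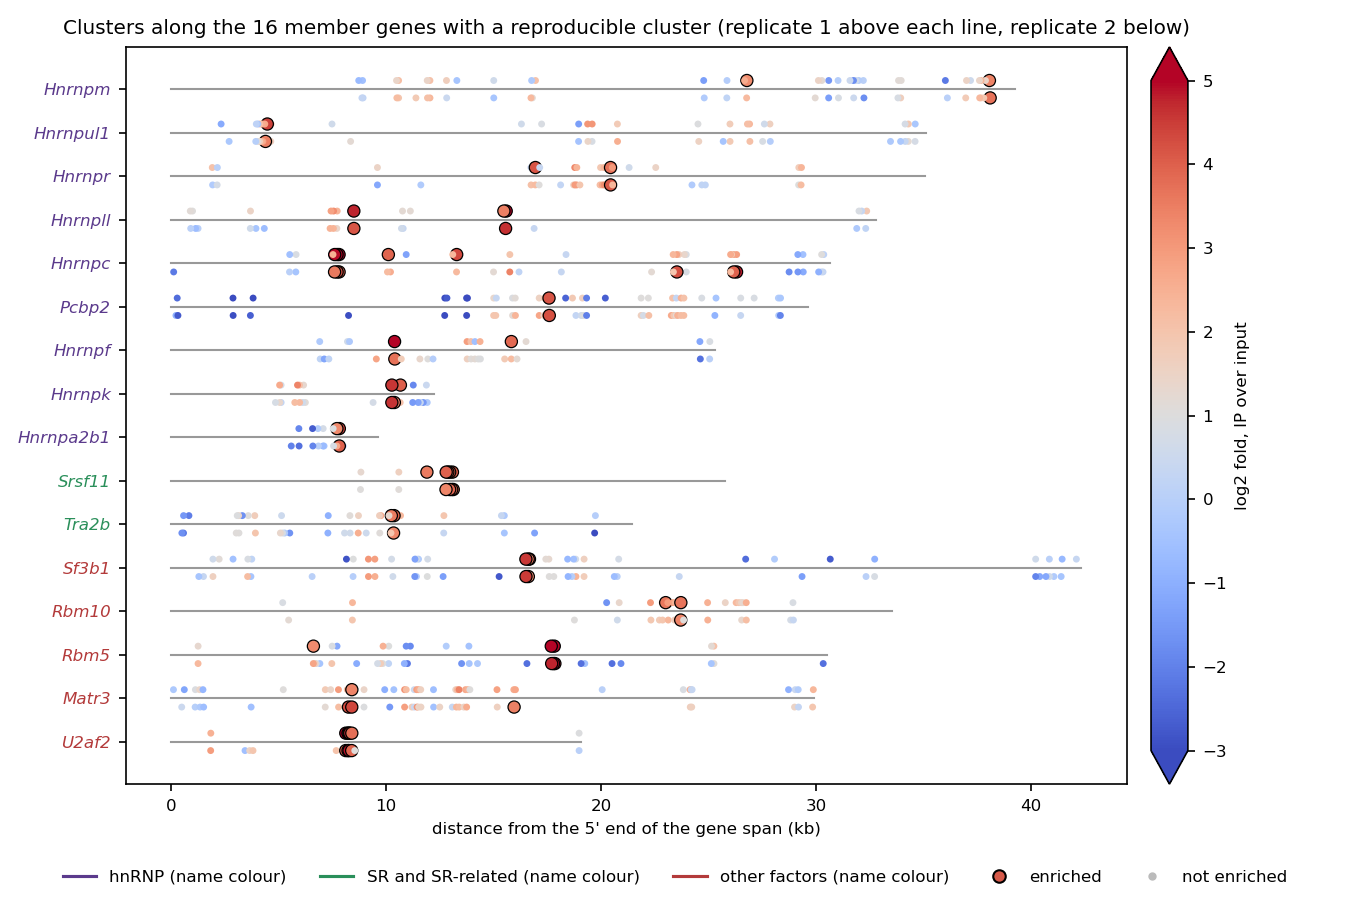
Clusters along the 16 member genes with a reproducible cluster, at their distance from the 5′ end of the gene span (kb, x axis), with replicate 1 above and replicate 2 below each line. Colour gives the log2 fold over input and large outlined points are enriched. Enriched points of the replicates lie above each other at 17 sites, of which only that of Hnrnpm is in the last 10% of its line.

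Sets of close relatives often had a reproducible cluster in 1 gene and not in the others. With 30.8% of all members holding one, how often unrelated genes would split in this way was not tested. Grouped into 12 sets of related genes, a grouping made after the values were seen, 29 members gave 8 sets with a reproducible cluster in exactly 1 member; relatives outside the 52 genes were not counted. The hnRNP L pair had it in Hnrnpll and not in Hnrnpl, whose gene medians were −1.97 and −1.44 against 1.67 and 0.36 in Hnrnpll. The poly(C)-binding pair had it in Pcbp2 and not in Pcbp1, a gene of 1710 nt with 1 cluster per replicate, at −1.96 and −3.04. The spans of these relatives differ, 29619 nt in Pcbp2 against 1710 nt in Pcbp1, and 32782 nt in Hnrnpll against 13723 nt in Hnrnpl. Hnrnpf had it and the members Hnrnph1 and Hnrnph3 did not, though their relative Hnrnph2, which is not a member, also had one (3.62 and 3.30). Hnrnpa2b1 had it and Hnrnpa0, Hnrnpa1 and Hnrnpa3 did not, and Hnrnpul1 had it and Hnrnpu and Hnrnpul2 did not. Hnrnpc against Raly, Hnrnpr against Syncrip and Tra2b against Tra2a were the remaining sets of this kind. The splits depend on the threshold, since Tra2a also had a reproducible cluster at a log2 fold of at least 2. Both Rbm5 and Rbm10 had one, while none of Hnrnpd, Hnrnpdl and Hnrnpab, neither of Tia1 and Tial1, and neither of Raver1 and Raver2 did. The U2AF subunits, which are not close relatives, differed too: U2af1, which contacts the end of the intron, had 4 and 8 clusters, of which none overlapped between replicates.

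Several members had only clusters near or below input. Hnrnpa1 had gene medians of −2.28 and −1.17, and its highest cluster reached −0.16 in replicate 1 and 0.03 in replicate 2. Srsf2, an SR protein gene of 3779 nt, had medians of −1.88 and −1.61, and Hnrnph3 −1.96 and −1.80. Tardbp, the gene of TDP-43, had −0.64 and −0.90. In these genes PTBP1 clusters were called, but at levels near or below input in both replicates. In Srsf5 the median was 0.07 over 5 clusters in replicate 1 and −3.63 over 6 in replicate 2, at partly different places. Near the 5′ end both were low, −3.68 in replicate 1 and −3.51 and −3.76 in replicate 2. Farther along, replicate 1 clusters at 1.48, 1.22 and 0.07 overlapped a replicate 2 cluster at −0.54. The rest had no overlapping partner, −0.23 in replicate 1 and −4.14, −3.75 and −0.74 in replicate 2.

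Other splicing genes, a list of 75 spliceosome components, kinases and regulators outside the members, gave a comparison within the same process. Of its 72 genes with clusters in both replicates, 17 (23.6%) had a reproducible cluster, close to the 24.9% of all genes. The leading one was Taf15, the gene of an RNA-binding protein, with log2 folds of 5.83 and 5.11. Nova2, a splicing regulator best known from neurons, had 4.57 and 4.98, and the SR protein kinase gene Srpk2 had 5.98 and 4.53. The kinase gene Clk4, whose protein phosphorylates SR proteins, had 3.78 and 3.83.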

How the data were processed

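PTBP1 eCLIP was measured in whole mouse heart, in 2 immunoprecipitates with 2 paired inputs. STAR 2.6.0c, cutadapt 2.7 and UMI-tools 0.5.1 are listed without roles in the submitters' processing notes, with hg38 and mm10 as builds; the sources used here do not give how clusters were called, annotated and tested. The authors deposited 1 cluster table per replicate; per the file headers, each holds a log2 fold and a −log10 p-value per cluster, taken here as immunoprecipitate over paired input. In both deposited tables the −log10 p-value has a maximum of 400 and is 0 wherever the log2 fold is negative. Depth is unknown, so no single fold has an interval. Coordinates count from 1 and are taken as mm10, since clusters on chromosome 1 reach base 195161571, beyond its end in the later assembly.

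Clusters were placed by midpoint and strand in GRCm38 gene spans. Strands of 47 members came from the RefSeq promoter table, and those of 5 (Hnrnpll, Matr3, Hnrnpul2, Khdrbs1 and U2af2) from at least 3 clusters lying in that gene alone with at least 90% on 1 strand. Clusters on the other strand of member spans (9 and 6, 0 enriched) were left out, and the 25 clusters per replicate that also lay in another gene on that strand (0 enriched) were kept. Pairs are overlaps of at least 1 nt; for a gene with a reproducible cluster the pair sharing most nucleotides is given, otherwise the pair with the highest lower fold. Positions within genes are those of midpoints. All genes with a reproducible cluster are named, and per class up to 6 others by number of clusters. The members and lists were chosen with earlier results of these data known. Alternatives changed the fold, p and overlap thresholds, the placement and the replicates used. Python 3.11.15, pandas 2.3.3, numpy 2.4.6, SciPy 1.17.1 and matplotlib 3.10.9 were used, and the overlap and placement code was tested on simulated data.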

Additional observations from a re-analysis of the deposited data

How the results depend on the processing

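Of 55 alternative values, 35 stayed within their limits and 20 moved. The limits were wide, as 24 genes in place of 16 at a log2 fold of at least 1 or 2 counted as within them. So did 46 clusters in place of 31 without replicate 2. The 16 genes with a reproducible cluster were all kept under both stricter overlaps and without clusters in several genes. Looser folds and placement by any overlap keep them by definition. At a −log10 p of at least 5, 15 were left, and 7 at a log2 fold of at least 4. A single replicate gave 17 to 21 genes with an enriched cluster (without replicate 1, and without replicate 2), which include the 16 by definition. The 31 reproducible clusters of replicate 1 became 64 at a log2 fold of at least 1, 62 at 2 and 11 at 4, and the 29 of replicate 2 became 62, 59 and 11. Joining touching clusters left 17 from either side. Enriched clusters of a single replicate numbered 35 to 46. The percentage of member clusters enriched, 5.28 in replicate 1, was 9.63, 9.17 and 2.87 at a log2 fold of 1, 2 and 4, and 3.77 in replicate 2 became 7, 6.68 and 1.83. These changes follow from the thresholds themselves. The median log2 fold of 0.62 in replicate 1 was 0.26 as the median of gene medians, where the cause was not tested. In replicate 2 the median log2 fold of 0.20 was −0.0022 by the same measure. Among clusters with a −log10 p of at least 3 it was 3.34 in replicate 1 and 3.37 in replicate 2, and the correlation of 0.845 was 0.58, since these clusters are chosen by enrichment. No paired analysis was possible because the authors' folds already set each immunoprecipitate against the input of its own lysate and no read counts were used. The planned position in exons and introns and the motif content of clusters were not run, as neither exons nor a genome were used here. The fold of 2 and the length bins were added after seeing the data. Without read counts, the depth behind each cluster and its error stay unknown.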
